A study of Mus musculus with 4 samples.

Results

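The FoxO genes of the mouse, Foxo1, Foxo3, Foxo4 and Foxo6, were read probe set by probe set on 4 expression arrays of regulatory T cells (Treg cells, the CD4 T cells that express Foxp3 and restrain other immune cells). A probe set is a group of short probes designed against 1 stretch of a transcript, so a gene with several probe sets has several separate readings. Every probe set that the platform annotation assigned to a FoxO gene was taken, whatever its signal. This gave 10 of the 45037 probe sets that are not array controls, for 3 of the 18193 genes named on the array: 4 for Foxo1 (chromosome 3), 4 for Foxo3 (chromosome 10) and 2 for Foxo4 (chromosome X). No probe set was assigned to Foxo6, so Foxo6 is not analysed here.

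The cells came from the spleen of C57BL/6 mice. The first group, with 2 arrays, is titled wild-type, and the second, with 2 arrays, is titled Foxo1/3-deficient; it is called labelled-deficient here. The genotype field of that second group names Foxo1 alone, whereas Foxo3 is named beside it in the titles and in the description of the series. Each array also carries a pair number, 1 or 2, and every pair holds 1 array of each group. The sources used here do not give the age of the mice, the alleles, the Cre driver or other means of deletion, or whether animals were pooled. Nothing in the labels ties the 2 arrays of a group to separate animals, so p-values measure only the spread between these arrays.

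FoxO proteins are forkhead transcription factors that act at the end of the insulin and antigen receptor signalling pathway. When PI3K is active, the kinases AKT and SGK phosphorylate FoxO proteins, 14-3-3 proteins bind them, and they leave the nucleus; when the pathway is quiet they enter it and switch on genes of quiescence, stress resistance and, in T cells, lymph node homing. Foxo1 and Foxo3 are the FoxO proteins best known in T cells, Foxo4 is a related member, and Foxo6 is known mainly from the brain.

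Values are MAS5 signals, background-corrected intensities on a linear scale with no unit, and their 2% trimmed mean was 500.003 on every array. Any 2 arrays correlated in their log2 signals over the tested probe sets (Pearson r from 0.938 to 0.964, across probe sets). The arrays differed in sex-linked transcripts. The Y-linked genes named here followed the pair numbers, while Xist also differed within pair 2. Xist, the RNA that silences an X chromosome, read 11569 and 4589 on wild-type replicates 1 and 2 and 11497 and 83.0 on labelled-deficient replicates 1 and 2. The Y-linked gene Eif2s3y read 10.3, 5396, 4.01 and 6414 in the same order. Y-linked Kdm5d (1424903_at) and Uty (1426598_at) were likewise high on both pair 2 arrays alone, at 653 and 484 (wild-type) and 904 and 559 (labelled-deficient), so the arrays of a group were not repeats of 1 RNA sample. The Xist signals are those of its brightest probe set, 1436936_s_at. The other Xist probe sets read lower on wild-type replicate 2 than on replicate 1 by a wider margin, at 1909 against 12934 (1427262_at) and 79.1 against 1673 (1427263_at). On labelled-deficient replicate 2 these probe sets read 17.2 and 2.84. Wild-type replicate 2 thus held both Xist and Y-linked signals, whereas labelled-deficient replicate 2 held Y-linked signals and little Xist. The part of this difference in the FoxO values was not tested.

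Foxo1 was several times higher on the labelled-deficient arrays than on the wild-type arrays at each of its 3 bright probe sets. The brightest, 1416983_s_at, gave wild-type signals of 2383 and 1254 in pairs 1 and 2, and labelled-deficient signals of 6949 and 6697. Probe set 1416981_at read 1161 and 720 against 4485 and 4015. Probe set 1416982_at read 786 and 612 against 3133 and 3438. On all 3 the lowest labelled-deficient array lay far above the highest wild-type array, and the direction is opposite to the name of the group. Whether the titles name the arrays correctly could not be checked here; if they were exchanged, every difference given would change its sign.

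The wild-type array of pair 2 was the lowest of the 4 arrays on each bright Foxo1 probe set, while the labelled-deficient arrays lay close together. The wild-type arrays differed by 1.90-fold on 1416983_s_at, by 1.61-fold on 1416981_at and by 1.28-fold on 1416982_at. The labelled-deficient arrays differed by at most 1.12-fold on these 3. The ratio of labelled-deficient to wild-type signal was therefore smaller in pair 1 than in pair 2 on each of them, at 2.92, 3.86 and 3.99 against 5.34, 5.58 and 5.62.

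**Figure D1:**
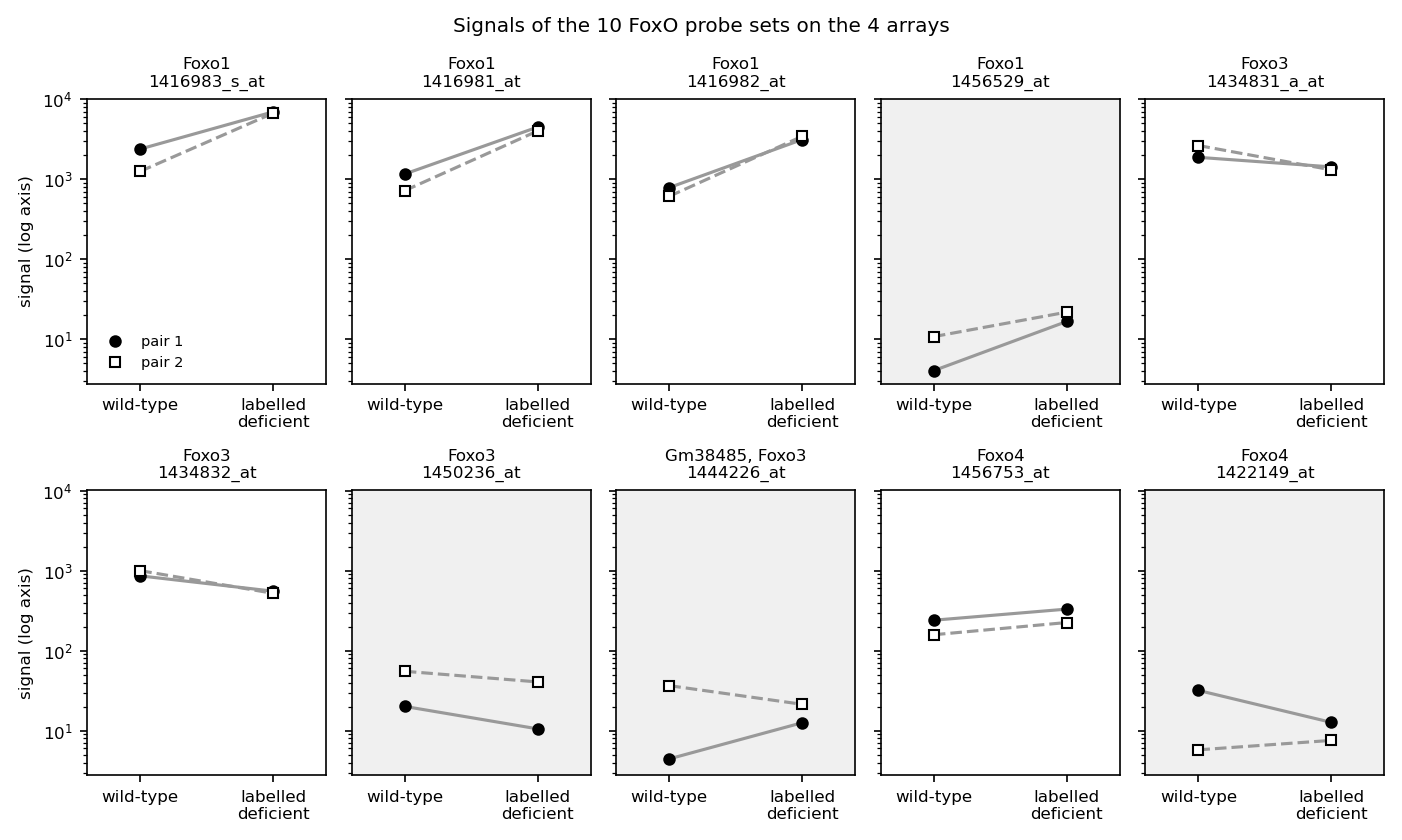
Signal of each of the 10 FoxO probe sets (vertical log axis, no unit) on the wild-type and labelled-deficient arrays, with a line joining the arrays of pair 1 (filled circles) and of pair 2 (open squares); grey panels mark the 4 probe sets under the filter on dim signals. The 3 bright Foxo1 probe sets climb in both pairs, the 2 bright Foxo3 probe sets descend in both, and the grey panels stay between 4.05 and 55.2.

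The test across all probe sets called the 3 bright Foxo1 probe sets higher on the labelled-deficient arrays. Differences were taken on the log2(signal + 17) scale, with 17 taken from the 25th percentile of the signals, and a probe set was tested if its mean lay at or above the 40th percentile, a signal of about 40.5; such a difference understates the change of dim probe sets. Foxo1 1416982_at differed by 2.21 ± 0.25 (log2, SE; n = 2 per group; limma adjusted p = 0.00839). Foxo1 1416981_at differed by 2.19 ± 0.28 (limma adjusted p = 0.0128) and 1416983_s_at by 1.97 ± 0.30 (limma adjusted p = 0.0280). The 95% intervals ran from 1.65 to 2.78, from 1.55 to 2.83 and from 1.27 to 2.67.

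Among the 27022 probe sets tested, 1.16% were called in either direction, 0.633% as higher and 0.529% as lower on the labelled-deficient arrays. By size of the log2 difference the 3 Foxo1 probe sets ranked 93, 102 and 148 from the highest of the 27022. They are not 3 independent readings, since the annotation gives 1 and the same source sequence for all 3. Their log2 differences lay within 0.25 of each other; over the 1487 genes with 3 tested probe sets the median of that range was 0.38, and 27.7% of those genes had a narrower one.

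The Foxo1 probe sets 1416981_at and 1416983_s_at missed the threshold when no dim probe sets were left out (limma adjusted p = 0.0634 and 0.125) or when the variance model had no intensity trend (0.0655 and 0.113), and 1416982_at passed in each (0.0457 and 0.0466). The sources used here do not place these probe sets against a deleted stretch, so it is not known whether they can serve as a check of the deletion.

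The remaining Foxo1 probe set, 1456529_at, came from a different source sequence and was dim. Wild-type signals were 4.05 and 10.8, and labelled-deficient signals 16.7 and 21.8. Those groups did not overlap either, but the signals lie under the filter and near the pseudocount, and without the filter the difference was 0.58 ± 0.28 (log2, SE; n = 2 per group; limma adjusted p = 0.670).

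Foxo3 was lower on the labelled-deficient arrays in both pairs, by less than Foxo1 was higher, and missed the threshold. Probe set 1434831_a_at read 1876 and 2635 (wild-type) against 1424 and 1308 (labelled-deficient). Probe set 1434832_at read 861 and 1001 against 554 and 521. On both probe sets each labelled-deficient array lay below each wild-type array, and the highest array was the wild-type array of pair 2, the same array that was lowest for Foxo1.

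Expressed as wild-type over labelled-deficient, the Foxo3 ratios were 1.32 and 2.01 in pairs 1 and 2 on 1434831_a_at, and 1.55 and 1.92 on 1434832_at. The log2 differences were -0.70 ± 0.25 (SE, n = 2 per group; limma adjusted p = 0.342) and -0.77 ± 0.26 (limma adjusted p = 0.288), with 95% intervals from -1.28 to -0.11 and from -1.37 to -0.17 that are not adjusted for the number of probe sets. Blocking on the pair number brought the limma adjusted p values to 0.0813 and 0.0704. These 2 probe sets also share 1 source sequence, and their log2 differences lay 0.073 apart, where the median range over 3125 genes with 2 tested probe sets was 0.22.

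The other 2 Foxo3 probe sets were dim and showed no common direction. Probe set 1450236_at read 20.1 and 55.2 (wild-type) against 10.5 and 40.7 (labelled-deficient), lower within each pair but with overlapping groups. Probe set 1444226_at, which the annotation assigns to Foxo3 and to Gm38485 together, read 4.44 and 36.6 against 12.6 and 21.4. It was higher in pair 1 and lower in pair 2 on the labelled-deficient array, and its signal cannot be given to either gene.

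Foxo4 had 1 probe set above the filter, with overlapping groups. Probe set 1456753_at read 240 and 158 (wild-type) against 331 and 225 (labelled-deficient). Within a pair the labelled-deficient array was higher each time, by 1.38-fold and 1.42-fold, but the pair 2 arrays were lower than the pair 1 arrays in both groups. The log2 difference was 0.45 ± 0.35 (SE, n = 2 per group, limma adjusted p = 0.803). Its 95% interval, not adjusted for the number of probe sets, ran from -0.36 to 1.26. That interval spans 0, so a rise, a fall and no change could not be told apart with these arrays.

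Foxo4 is the X-linked gene among the 3, and its pair 2 arrays stood 0.54 ± 0.29 below the pair 1 arrays on the log2(signal + 17) scale (SE, limma adjusted p = 0.421 with the titled group as a covariate). The Eif2s3y signals given above moved with the pair number too, and Xist differed between the pairs and within pair 2. The part of either in the Foxo4 values was not tested. The second Foxo4 probe set, 1422149_at, read 31.9 and 5.76 (wild-type) against 12.7 and 7.56 (labelled-deficient), with no order between the groups.

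Taken by overlap of the groups, the 6 tested FoxO probe sets split into 3 with both labelled-deficient arrays above both wild-type arrays (all Foxo1), 2 with both below (both Foxo3) and 1 with overlap (Foxo4). Over all tested probe sets 20.9% had the labelled-deficient arrays above and 17.5% below without overlap. With 2 arrays per group such a split is common. Of the 4 dim FoxO probe sets, 1 had groups without overlap. The share of such splits over all dim probe sets was not computed.

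**Figure D2:**
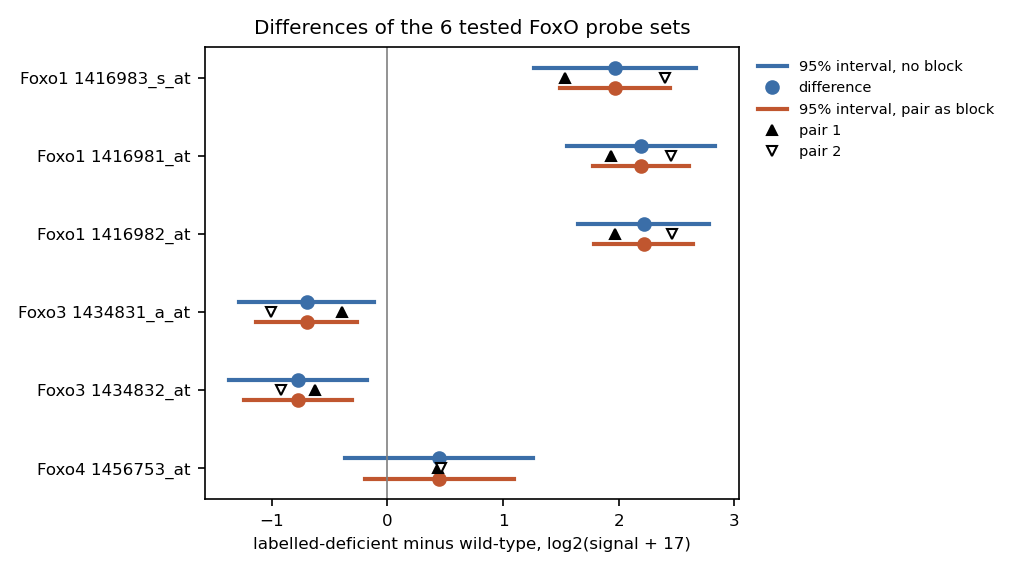
Labelled-deficient minus wild-type difference of the 6 tested FoxO probe sets on the log2(signal + 17) scale, with 95% intervals from limma without (blue) and with (orange) the pair as a block, and the difference within each pair (triangles). The Foxo1 intervals lie above 1.27 without the block, the Foxo3 intervals lie below 0, and the Foxo4 interval spans 0.

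The pair number moved the members less than the group did for Foxo1. In the fit with both terms, pair 2 minus pair 1 was -0.49 ± 0.21 on Foxo1 1416983_s_at, -0.42 ± 0.19 on 1416981_at and -0.11 ± 0.19 on 1416982_at (log2, SE; limma adjusted p = 0.313, 0.328 and 0.844). For Foxo3 it was 0.18 ± 0.20 on 1434831_a_at and 0.063 ± 0.21 on 1434832_at (limma adjusted p = 0.731 and 0.926). No FoxO probe set passed for the pair, and 1.21% of all tested probe sets did. With the pair as a block the Foxo1 differences had limma adjusted p values of 0.000267, 0.000263 and 0.000739 for 1416982_at, 1416981_at and 1416983_s_at, in a fit that called 5.13% of all probe sets.

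Foxo1 and Foxo3 were also set against each other within each array, as the change of Foxo1 1416983_s_at minus the change of Foxo3 1434831_a_at. That difference was 1.93 in pair 1 and 3.40 in pair 2 on the log2 scale, with a mean of 2.67. It pointed the same way in both pairs, which follows from the directions of Foxo1 and Foxo3 given above and adds nothing to them. The exact permutation test over the 4 arrays gave p = 0.333 (two-sided). That is the smallest p that 2 arrays against 2 allow, so this test cannot decide whether the genes differ.

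Leaving out 1 array at a time left the direction of all 6 tested FoxO probe sets as it was. The 3 Foxo1 probe sets passed each time, with limma adjusted p values up to 0.0435. The largest shifts came from the wild-type arrays. Foxo1 1416983_s_at went from 1.97 to 2.43 without wild-type replicate 1 and to 1.51 without wild-type replicate 2. Foxo3 1434831_a_at went from -0.70 to -0.94 and -0.45, and did not pass in any of the 4 fits (limma adjusted p from 0.204 to 0.778). Foxo4 1456753_at ran from 0.17 to 0.73 on the log2 scale. It stood at 0.17 and 0.73 when wild-type replicate 2 or 1 was dropped. With labelled-deficient replicate 1 or 2 dropped it stood at 0.19 and 0.71.

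**Figure D3:**
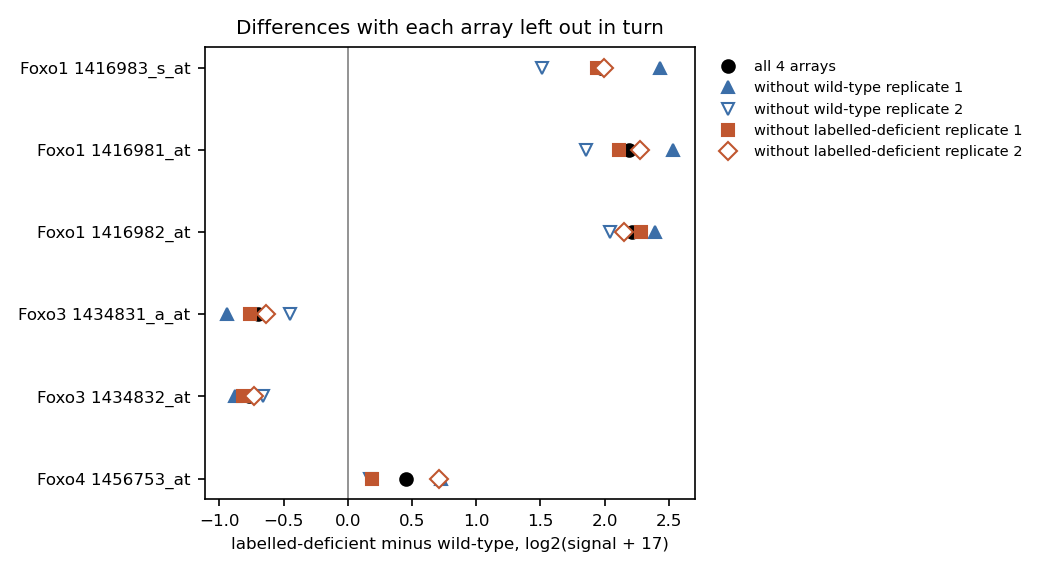
Labelled-deficient minus wild-type difference of the 6 tested FoxO probe sets, log2(signal + 17) scale, with all 4 arrays (black) and with each array left out in turn. The points of a probe set stay on 1 side of 0, and the Foxo1 points lie between 1.51 and 2.53.

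The promoters of Foxo1 and Foxo3 are printed because these are the FoxO genes whose bright probe sets stood apart between the groups, in opposite directions. Each line gives the 250 bases before the RefSeq start of the gene, 5′ to 3′ on the strand of the gene (GRCm38.p6), with matches to TGTTT and CCAAT on either strand in capitals. RefSeq sequences were given for these 2 of the 4 genes.
Foxo1, chr3:52268087-52268336, plus strand: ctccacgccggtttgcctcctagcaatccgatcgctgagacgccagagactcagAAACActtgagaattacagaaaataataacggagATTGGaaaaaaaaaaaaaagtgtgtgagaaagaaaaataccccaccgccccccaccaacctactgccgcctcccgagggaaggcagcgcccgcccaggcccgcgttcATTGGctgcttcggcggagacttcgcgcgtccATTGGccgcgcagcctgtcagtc
Foxo3, chr10:42276696-42276945, minus strand: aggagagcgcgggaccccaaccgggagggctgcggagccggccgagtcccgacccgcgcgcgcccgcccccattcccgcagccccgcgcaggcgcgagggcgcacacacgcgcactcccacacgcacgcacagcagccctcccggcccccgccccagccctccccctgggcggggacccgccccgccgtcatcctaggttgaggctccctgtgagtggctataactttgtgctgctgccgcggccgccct
The FoxO core element TGTTTAC, or its reverse complement GTAAACA, is in neither window and in 3.17% of 32536 distinct promoter windows of that length. Its first 5 letters, TGTTT or AAACA, occur 1 time before Foxo1 and 0 times before Foxo3, against 46.4% of all windows with at least 1 match. CCAAT or ATTGG, the CCAAT box of many promoters, occurs 3 times before Foxo1 and 0 times before Foxo3, and in 33.8% of all windows. Bases G and C made up 56.0% of the Foxo1 and 76.4% of the Foxo3 window, where the median was 52.4%. A match is a run of letters and does not show that a factor binds there.

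The genes whose pattern over the 4 arrays lay nearest to Foxo1 were Bcl2 and Selenop. Likeness was the Euclidean distance between log2(signal + 17) values centred on each probe set's mean. It was compared over 22230 probe sets with 1 gene symbol, and a gene was listed by its nearest probe set alone. Likeness describes 4 arrays and has no test. Bcl2, which encodes an anti-apoptotic protein, lay at a distance of 0.0237 from Foxo1 1416983_s_at, where the median of all probe sets was 2.11. Its probe set 1457687_at read 1534 and 787 (wild-type) against 4416 and 4290 (labelled-deficient). Selenop, which encodes a selenium transport protein, followed at 0.0815 with 4133 and 2240 against 11629 and 11079. Cacna2d4 (a calcium channel subunit gene, 0.134), Sgms1 (a sphingomyelin synthase gene, 0.158) and Abca1 (a cholesterol exporter gene, 0.173) completed the 5 nearest. The other 2 bright Foxo1 probe sets lay at 0.291 and 0.487. The nearest probe sets of these 5 genes were thus closer to 1416983_s_at than the other bright Foxo1 readings were.

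The genes nearest to Foxo3 1434831_a_at were Ret (a receptor tyrosine kinase gene, distance 0.0351), Syne3 (a nuclear envelope protein gene, 0.0459), Gm34703 (0.0661), Sesn2 (a sestrin gene, 0.0714) and Hyou1 (an endoplasmic reticulum chaperone gene, 0.0743), with a median of 0.947 over all probe sets. Several of these were dim: Ret read 76.6 and 114 (wild-type) against 55.1 and 47.1 (labelled-deficient). Hyou1 was bright, at 1742 and 2381 against 1340 and 1270. The Sesn2 match was probe set 1451599_at (194 and 265 against 139 and 133). Its brighter probe set, 1425139_at, read 283 and 283 against 211 and 277 (log2 -0.21, limma adjusted p = 0.926). The Foxo3 pattern is shallow, so many probe sets lie close to it, and the membership of this list depended on the pseudocount: 2 of its 5 genes were kept without one, and 1 of 5 with the median as pseudocount. For Foxo1 the numbers kept were 3 and 2 of 5, with Bcl2 and Selenop first and second each time.

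Among the other forkhead genes, Foxp1 was higher on the labelled-deficient arrays. The annotation names 35 further symbols of this kind (1 of them, Foxl2os, an antisense RNA). Of the 35, 15 had a probe set above the filter, each gene being read from its brightest probe set. Of these 15, 1 was called higher and 0 lower (limma; 1 at an unadjusted p under 0.05), against 0.801% higher and 0.883% lower among all 12115 genes, of which 12.4% (1502) had an unadjusted p under 0.05. The median log2 difference was -0.01, and -0.003 over all genes.

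Foxp1, a forkhead factor that helps to keep naive T cells quiescent, read 1347 and 635 (wild-type) against 4717 and 3925 (labelled-deficient) at its brightest probe set, 1435222_at. That is a log2 difference of 2.20 ± 0.35 (SE, n = 2 per group; limma adjusted p = 0.0309), a 4.58-fold change; without labelled-deficient replicate 1 the adjusted p was 0.0526. All 8 Foxp1 probe sets lay higher on both labelled-deficient arrays than on both wild-type arrays, with log2 differences from 1.04 to 2.43 and 4 of the 8 called. Over all tested probe sets 20.9% lay higher in this way without overlap, and 0.633% were called higher. The 8 are readings of 1 gene and do not count as 8 independent results. As for Foxo1, wild-type replicate 2 was the lowest array at 1435222_at.

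**Figure D4:**
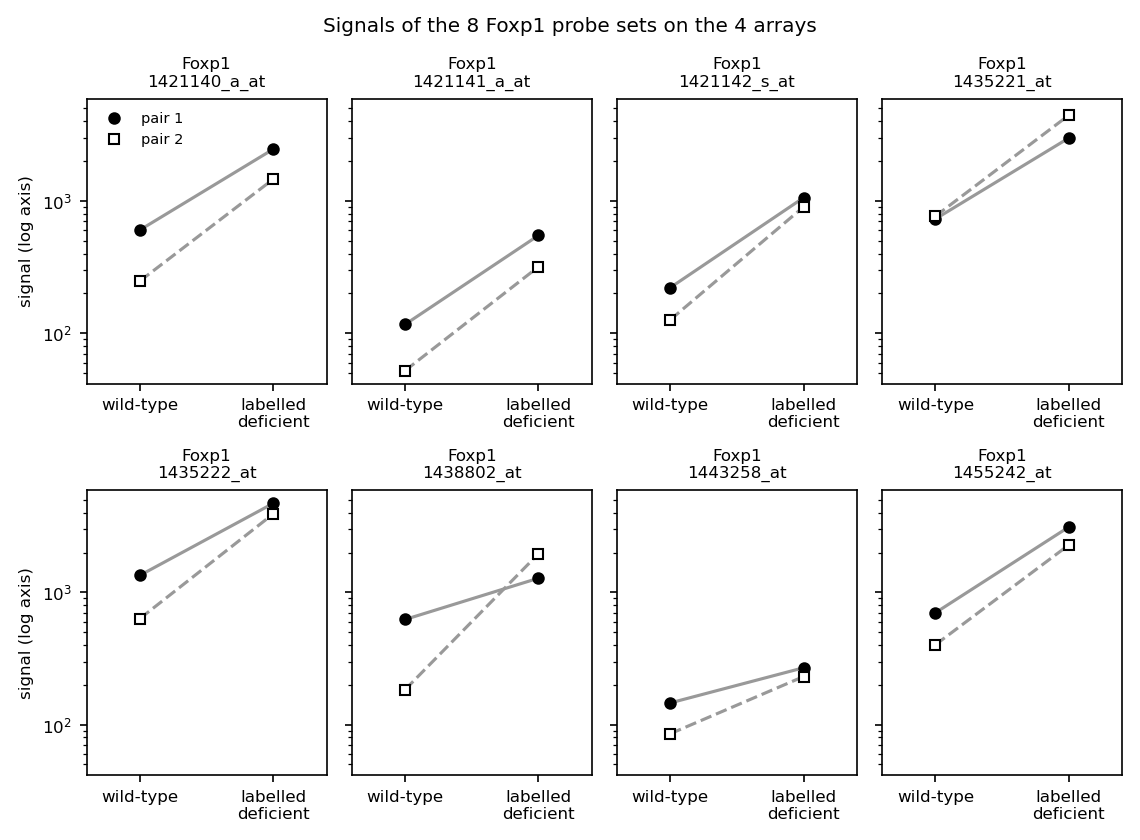
Signal of the 8 Foxp1 probe sets (vertical log axis, no unit) on the wild-type and labelled-deficient arrays, joined within pair 1 (filled circles) and pair 2 (open squares). All 8 climb in both pairs, by 1.84-fold to 4.78-fold in pair 1 and by 2.71-fold to 10.6-fold in pair 2.

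Foxp3, the factor that defines Treg cells, read 6540 and 6285 (wild-type) against 6504 and 6056 (labelled-deficient), a log2 difference of -0.03 ± 0.19 (SE, n = 2 per group; limma adjusted p = 0.989). Foxm1, a forkhead factor of dividing cells, read 366 and 338 against 294 and 309 at its brightest probe set (log2 -0.21 ± 0.29, limma adjusted p = 0.918). The other tested Foxm1 probe sets stood lower, at log2 -0.67 (1417748_x_at) and -1.09 (1448834_at), and were not called (limma adjusted p = 0.653 and 0.661). The Foxp3 difference, and the Foxm1 difference at its brightest probe set, are smaller than or close to their standard errors.

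Upstream of FoxO, the PI3K, AKT and SGK arm held a catalytic subunit and an inhibitor that were higher on the labelled-deficient arrays. Of 32 genes listed 30 were named on the array and 28 tested; 2 were called higher and 0 lower by limma (7 at an unadjusted p under 0.05), with a median log2 difference of 0.11. Over all genes 0.801% were called higher, 0.883% lower, and 12.4% had an unadjusted p under 0.05. Pik3ip1, which encodes an inhibitor of PI3K and is itself listed as a FoxO target, read 439 and 322 (wild-type) against 1534 and 1750 (labelled-deficient) (log2 2.07 ± 0.27, SE, limma adjusted p = 0.0148). Pik3cd, which encodes the p110 delta catalytic subunit of lymphocytes, read 867 and 746 against 2039 and 2445 (log2 1.45 ± 0.25, limma adjusted p = 0.0386).

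The Pik3cd call depended on its probe set and on the arrays used. It did not pass without wild-type replicate 2 (limma adjusted p = 0.0806), labelled-deficient replicate 1 (0.0851) or labelled-deficient replicate 2 (0.173). Of the other 3 tested Pik3cd probe sets, 1443798_at stood at log2 0.043, 1446770_at at 0.91 and 1422992_s_at at 1.30 (limma adjusted p = 0.990, 0.292 and 0.143). Akt1, the kinase gene, read 2012 and 1188 (wild-type) against 1556 and 818 (labelled-deficient) (log2 -0.45 ± 0.37, limma adjusted p = 0.825), with the pair 2 array the lower in each group. Sgk1, the related kinase gene, read 4082 and 4797 against 2845 and 4271 (log2 -0.34 ± 0.25, limma adjusted p = 0.781). Under the pair block 4 genes were called higher, where 2.99% of all genes were. The 2 added, chosen after their values were seen, were Pik3r5 and Inpp4b, a regulatory PI3K subunit gene and a lipid phosphatase gene (log2 1.86 and 1.50; limma adjusted p = 0.00154 for each with that block, 0.0861 and 0.164 without it).

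Genes for the enzymes and partners that modify or carry FoxO proteins were mostly not called. Of 39 listed 38 were named on the array and 36 tested; 0 were called higher and 1 lower by limma (3 at an unadjusted p under 0.05, where 12.4% of all genes had one), and the median log2 difference was 0.03. The share of all genes called lower was 0.883%. The call was Cdk1, a mitotic kinase that also phosphorylates FoxO proteins, with 2171 and 2273 (wild-type) against 880 and 808 (labelled-deficient) (log2 -1.38 ± 0.23, SE, limma adjusted p = 0.0386). It missed the threshold without any 1 of the arrays (limma adjusted p = 0.0542 and 0.0935 with wild-type replicate 1 or 2 dropped, 0.105 and 0.140 with labelled-deficient replicate 1 or 2 dropped).

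The other members named by the rule were not called. Stk4, which encodes the kinase MST1, read 12773 and 10135 (wild-type) against 13727 and 13604 (labelled-deficient) (log2 0.26 ± 0.19, limma adjusted p = 0.770). Sirt1, a deacetylase gene, read 2155 and 2141 against 2433 and 2268 (log2 0.13 ± 0.22, limma adjusted p = 0.943). Skp2, a ubiquitin ligase subunit gene, read 729 and 641 against 345 and 557 (log2 -0.62 ± 0.31, limma adjusted p = 0.582), lower on both labelled-deficient arrays but unevenly.

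**Figure D5:**
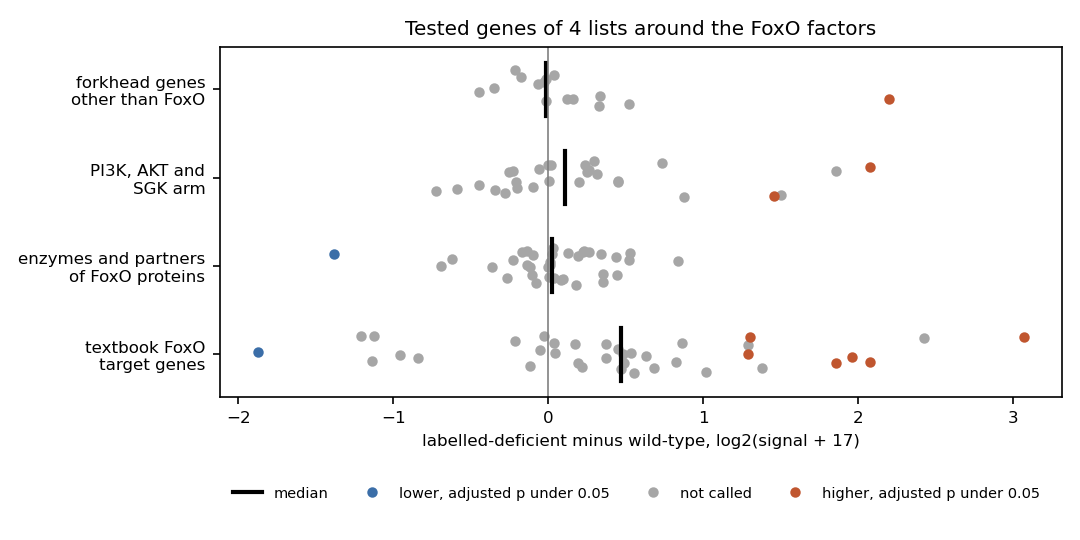
Labelled-deficient minus wild-type difference (log2(signal + 17) scale) of each tested gene in 4 lists around the FoxO factors, read from its brightest probe set; colour marks genes with a limma adjusted p under 0.05 and the black bar is the median. The medians are -0.01, 0.11, 0.03 and 0.47 from top to bottom.

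Textbook FoxO target genes lay higher on the labelled-deficient arrays more often than lower, the same side as Foxo1. Of 44 listed 41 were named on the array and 37 tested, of which 27 lay above 0 and 10 below. Limma called 6 higher and 1 lower (18 at an unadjusted p under 0.05). Among all genes the shares were 0.801% higher, 0.883% lower and 12.4% at that unadjusted p. The median log2 difference was 0.47, and many of these genes were known from earlier results on these data, so the list is no independent evidence of direction. The higher calls included Ccr7, a lymph node homing receptor gene (846 and 324 against 5797 and 3535, log2 3.07 ± 0.44), and Sesn1, a stress-response gene (2920 and 1923 against 9756 and 8823, log2 1.96 ± 0.25). Klf2, a quiescence factor gene, and Il7r, the interleukin-7 receptor gene, stood at 1.29 ± 0.21 and 1.30 ± 0.22, Insr, the insulin receptor gene, at 1.86 ± 0.32, and Pik3ip1 is given above.

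Cdkn1a, a cell cycle inhibitor gene and FoxO target, went the other way, from 498 and 678 (wild-type) to 173 and 123 (labelled-deficient) (log2 -1.87 ± 0.33, SE, limma adjusted p = 0.0428). Cdkn1b, another inhibitor gene and target, read 1640 and 1175 against 2793 and 1502 (log2 0.56 ± 0.33, limma adjusted p = 0.690), with overlapping groups. With the pair as a block 11 targets were called higher and 5 lower, where 2.99% and 3.93% of all genes were. Fasl, Rbl2 and Tnfsf10, chosen after their values were seen, also stood lower (log2 -1.21, -1.14 and -1.12). They did not pass in the main fit (limma adjusted p = 0.0871, 0.0980 and 0.156). Without the filter on dim probe sets, or without the intensity trend, limma called 0 genes of any of the 4 lists. Ccr7, Sesn1 and Pik3ip1 passed without any 1 array, Klf2 missed the threshold without wild-type replicate 2 (limma adjusted p = 0.0589), labelled-deficient replicate 1 (0.140) or labelled-deficient replicate 2 (0.0776), Il7r without wild-type replicate 2 (0.0578) or labelled-deficient replicate 2 (0.163), Insr without wild-type replicate 2 (0.0769), labelled-deficient replicate 1 (0.0680) or labelled-deficient replicate 2 (0.131), and Cdkn1a without wild-type replicate 2 (0.0875) or labelled-deficient replicate 2 (0.124).

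Markers of T cells and Treg cells were present on all arrays: 8 of 8 were tested and 0 called by limma (0 at an unadjusted p under 0.05), and their summed signal was 51029 and 51716 (wild-type) against 50985 and 49316 (labelled-deficient). B cell markers summed over 4 genes to 2236 and 755 (wild-type) against 2603 and 1675 (labelled-deficient). Myeloid markers summed over 5 genes to 6641 and 4254 against 9309 and 6944. Most of each myeloid sum came from 1 Csf1r probe set, 1419872_at (4749 and 2987 against 6676 and 5165). Of the 4 myeloid markers tested, 3 had a log2 difference above 0 and 1, Lyz2, below (942 and 611 against 772 and 613). Like Foxo1, both sums were lowest on wild-type replicate 2. Limma called none of the 3 B cell and 4 myeloid markers tested (0 and 2 at an unadjusted p under 0.05). After blocking on the pair it called Ms4a1 and Adgre1, 1 of each, higher (limma adjusted p = 0.0456 and 0.0152). The other tested B cell markers were lower on the labelled-deficient array in pair 1, Cd79a at 163 against 197 and Cd79b at 784 against 941. In pair 2 they were higher (69.3 against 26.1 and 568 against 299). A further Ms4a1 probe set, 1450912_at, did the same (677 against 722, then 602 against 293). CD8 T cell markers summed over 2 genes to 518 and 367 against 423 and 663, and 2 natural killer cell markers to 45.3 and 27.9 against 39.6 and 32.0. Neutrophil markers summed over 3 genes to 719 and 119 against 196 and 50.6, and 2 erythroid markers to 39.6 and 158 against 187 and 129; none was called. No marker had a signal of exactly 0. The part of these cells in the Foxo1 difference was not tested, and in such bulk samples fewer cells of a type cannot be told apart from less RNA per cell.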

How the data were processed

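Total RNA of splenic Treg cells was labelled with biotin and hybridised to Affymetrix arrays, per the labels' protocols. The deposited values are linear probe-set intensities that the authors computed with MAS5, per the submitters' processing notes; the sources used here do not give its version or settings. All 45101 rows held a value on every array, and 64 array controls were left out. Detection calls were not used here. In the platform annotation 34945 probe sets had 1 symbol, 932 had several and 9160 had none; single symbols were updated through gene IDs of a RefSeq table (GRCm38.p6).

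From the deposited signals, log2(signal + 17) was computed and tested with limma 3.58.1 in R 4.3.3 (lmFit, eBayes with an intensity trend; two-sided; Benjamini-Hochberg over all 27022 probe sets tested; threshold 0.05). The fit had 2 residual degrees of freedom and 6.17 from the shared variance model. Scripts were tested on simulated data. The titles call the number a pair without saying what is shared; deviations from group means correlated between same-numbered arrays with r = 0.282 across probe sets (2 pairs, which are not independent across genes). The fit without the pair was the main one. Alternatives were the pair block, other pseudocounts and filters, quantile normalization, no trend, 1 probe set per gene, and leaving out each array.

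Named genes were every FoxO probe set, the called members of 4 lists (all where 8 or fewer), 15 genes fixed by name where they had a probe set, and the 5 genes nearest to Foxo1 and to Foxo3. Members and lists were chosen with earlier results of these data known. With 2 arrays per group, the number of arrays limits the precision.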

Additional observations from a re-analysis of the deposited data

How the results depend on the processing

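No alternative reversed a FoxO probe set. Over 69 values of the 6 tested FoxO probe sets under the alternatives, 65 kept direction and side of the threshold; the exceptions were Foxo1 1416983_s_at (log2 1.97) and 1416981_at (2.19), which missed it without the filter (adjusted p = 0.125 and 0.0634) and without the intensity trend (0.113 and 0.0655), at the same differences. Leaving out 1 array gave 1.51 to 2.43, 1.85 to 2.53 and 2.04 to 2.39 for Foxo1 (1416983_s_at, 1416981_at, 1416982_at), -0.94 to -0.45 and -0.88 to -0.66 for Foxo3 and 0.17 to 0.73 for Foxo4. The cause of the changes below was not tested. Some settings also changed the number of probe sets tested or of arrays used.

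Over all probe sets, 171 were called higher and 143 lower. The pair block (replicate block) gave 682 and 705, no filter 38 and 29, no intensity trend 47 and 51, and leaving out 1 array 110 to 368 and 98 to 187. The block changed no FoxO call. With the block the PI3K arm went from 2 to 4 higher and the targets from 6 to 11 higher and from 1 to 5 lower. Without the filter, and without the trend, each of these list counts was 0, as were those of other forkhead genes (1 higher) and FoxO-modifying enzymes (1 lower). Leaving out 1 array gave 0 to 1 forkhead, 1 to 4 PI3K arm and 4 to 7 target genes higher, and 0 to 2 targets and 0 modifying enzymes lower. Within pairs 1 and 2, Foxo4 (0.43 and 0.47) stood at 0.46 and 0.51 without a pseudocount, 0.36 and 0.36 with the median as pseudocount, and 0.41 and 0.32 after quantile normalization. The range between the probe sets of a gene grew from 0.25 to 1.64 for Foxo1 and from 0.073 to 0.39 for Foxo3 without the filter, since dim probe sets entered. These ranges take only probe sets with 1 gene symbol. They leave out 1444226_at, which stood at log2 -0.0088 without the filter. Of the 5 nearest genes, 3 and 2 (Foxo1) and 2 and 1 (Foxo3) were kept without a pseudocount and with the median as pseudocount.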
